A study of Mus musculus with 6 samples.

Results

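Wild-type mouse brown fat cells were compared with brown fat cells in which both PGC-1 coactivators had been targeted, PGC-1alpha by knockout and PGC-1beta by an siRNA. The comparison was set by the sample titles and took 4 of the 6 arrays of the series, 2 per group, and the 2 arrays of PGC-1alpha -/- cells with a control siRNA are given beside it. The cells of every group were immortalised with SV40 large T antigen and harvested after 7 days of differentiation. The wild-type titles name no siRNA, and a passage number, 4, is given for the wild-type cells only. One wild-type label describes cells from brown fat tissue of a mixed-background mouse. The knockout and wild-type cells are separate lines, so genotype, siRNA expression and line cannot be told apart in a comparison with wild type. The series calls the replicates biological, and no label says whether they are separate clones, so p-values measure the spread between these arrays. Some probe sets of Xist and of Y-linked genes also differed between the wild-type and knockout lines. Between the 2 arrays of a group the log2 values correlated at r = 0.989 in wild type and 0.963 in double loss, across genes, and double-loss array 1 correlated at 0.967 with a knockout-control array. The knockout cells with the PGC-1beta siRNA are called double-loss cells here, and those with the control siRNA knockout-control cells.

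PGC-1alpha and PGC-1beta do not bind DNA themselves. They dock on nuclear receptors such as PPARs and estrogen-related receptors, and on nuclear respiratory factor 1, and bring histone acetyltransferases and the Mediator complex to the promoter. In brown fat they are known for driving genes of mitochondrial biogenesis and of heat production, the latter carried by the uncoupling protein UCP1, which lets protons back across the inner mitochondrial membrane without making ATP.

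Each value is the intensity of 1 probe set per gene, and differences are log2 fold changes of intensity plus 32, double loss minus wild type, with the standard error of the limma fit. Of 13644 genes tested, 1365 (10%) were called at an adjusted p under 0.05. Of these, 546 (4.00%) were higher and 819 (6.0%) lower in double-loss cells. A change of 2-fold or more was found for 179 higher and 268 lower genes, and one of 4-fold or more for 20 and 32. A gene was counted as kept when the 95% interval of its fold change lay within 2-fold either way, and 11685 genes (85.6%) were kept, 202 of them also called. The share of higher genes among those called was 40%, and after quantile normalization it was 55.2% (1269 higher and 1032 lower). The calls rested on both wild-type arrays: without wild-type array 1 there were 163 higher and 198 lower genes, and without wild-type array 2 there were 172 and 175. Without double-loss array 1 the lower genes numbered 1818, and without double-loss array 2 the higher genes numbered 930. In all, 269 genes were called in each of the 6 fits that left out 1 array.

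Ppargc1b, the target of the siRNA, read 2850 and 3162 in wild-type cells. It read 1862 and 2302 in knockout-control cells and 534 and 224 in double-loss cells. Both double-loss values lay below the other 4, and the fall was -3.00 ± 0.32 (adjusted p = 0.00129). Against knockout-control the difference was -2.47 (adjusted p = 0.0220), a call lost when either knockout-control array was left out (adjusted p up to 0.150). Ppargc1a, the gene named as knocked out, was still read by its probe sets: the brightest of 5 gave 1338 and 1319 in wild-type cells, 767 and 830 in knockout-control cells and 1146 and 648 in double-loss cells. The log2 difference was -0.60 ± 0.24 and missed the threshold (adjusted p = 0.151). The double-loss arrays disagreed: without array 1 the fall was larger and was called (adjusted p = 0.00502), and without array 2 it was -0.21. When every probe set was fitted as its own row, a choice made after seeing the data, 1 of the 5 passed, at -0.70 ± 0.19 (adjusted p = 0.0488). The sources used here do not give the exons that the knockout removes, so these probe sets do not check it. Pprc1, the third member of the family, read 344 and 357 in wild-type cells and 539 and 459 in double-loss cells, and its difference of 0.47 ± 0.16 did not pass (adjusted p = 0.106).

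**Figure D1:**
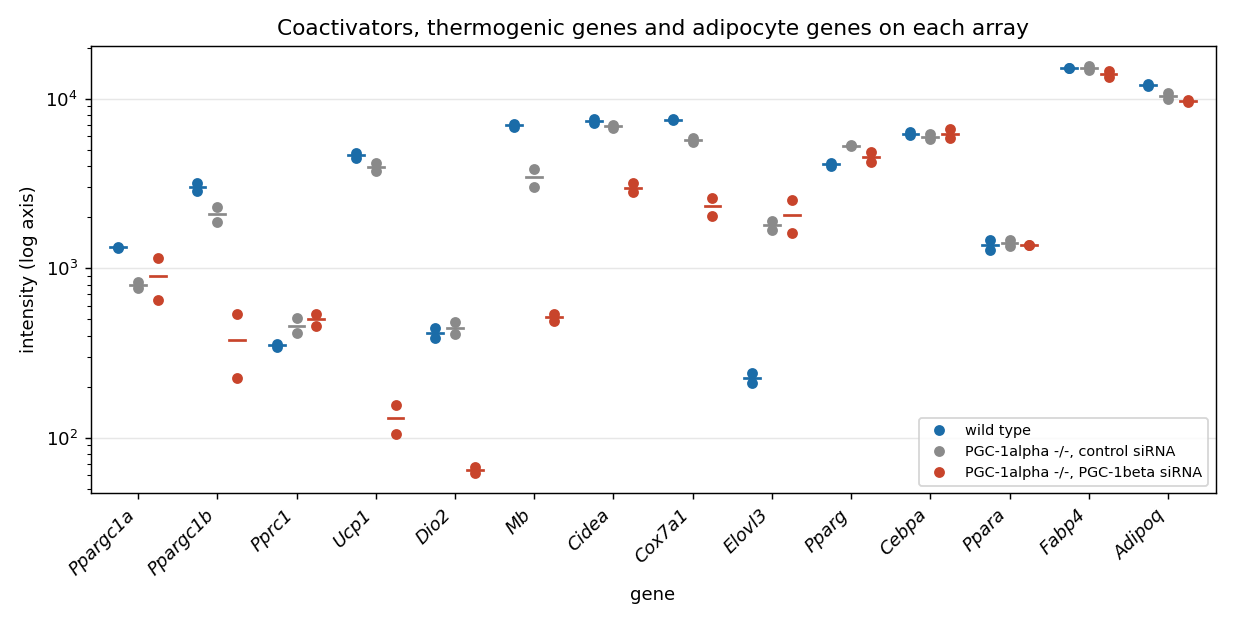
Intensity on each of the 6 arrays (points, log axis) for the PGC-1 family, thermogenic genes and adipocyte genes, with a bar at the mean of the 2 arrays of a group. The double-loss points of Ppargc1b, Ucp1, Dio2, Mb, Cidea and Cox7a1 lie below those of both other groups, while the points of Cebpa, Ppara and Fabp4 lie close together in all groups.

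Genes of heat production were among those that fell the most, with Ucp1 first. Ucp1 read 4488 and 4761 in wild-type cells, 4199 and 3725 in knockout-control cells and 156 and 105 in double-loss cells. The fall was -4.86 ± 0.18 (adjusted p = 2.1e-05), with no overlap between groups, and Ucp1 was called in each fit that left out 1 array. The difference from knockout-control was -4.64 (adjusted p = 3.4e-05). Because whole cultures were measured, fewer cells expressing a gene and less of its RNA per cell cannot be told apart. Mb encodes the oxygen carrier myoglobin and read 7134 and 6826 in wild-type cells, 3028 and 3847 in knockout-control cells and 536 and 489 in double-loss cells. It stepped down in both comparisons, by -3.69 ± 0.16 against wild type (adjusted p = 2.3e-05) and by -2.66 against knockout-control (adjusted p = 0.000458), though its second probe set had the opposite sign. Dio2, the deiodinase that makes active thyroid hormone inside the cell, read 442 and 390 in wild-type cells, 480 and 409 in knockout-control cells and 62.0 and 66.7 in double-loss cells. Its change was -2.21 ± 0.15 (adjusted p = 0.000158).

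Cidea, a lipid droplet protein used as a brown fat marker, read 7617 and 7172 in wild-type cells and 3184 and 2796 in double-loss cells. It fell by 1.30 ± 0.14 on the log2 scale (adjusted p = 0.00155), and the knockout-control arrays read 7011 and 6697. Cox7a1 encodes a heart and brown fat subunit of cytochrome oxidase, and it read 7478 and 7539 against 2611 and 2021, a change of -1.69 ± 0.16 (adjusted p = 0.000785). Not every brown fat gene moved this way. Elovl3, a fatty acid elongase induced in cold-exposed brown fat, rose from 240 and 210 in wild-type cells to 2527 and 1612 in double-loss cells, by 3.0 ± 0.21 (adjusted p = 0.000194). Its knockout-control values, 1686 and 1903, lay between the 2 double-loss values, and double loss differed from them by 0.17 (adjusted p = 0.783). Pdk4, the kinase that shuts off pyruvate dehydrogenase, rose from 1539 and 1443 to 3404 and 3277, by 1.15 ± 0.17 (adjusted p = 0.00518).

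Of 30 thermogenic genes tested, 14 were called lower and 3 higher, where 6.0% and 4.00% of all genes were. The median was -0.50 against -0.03 over all genes. Another 13 did not pass, among them Cox8b at -0.29 (adjusted p = 0.510). Of the 30, 11 were kept within 2-fold (36.7%, against 85.6% of all genes). Prdm16, a regulator of brown fat identity, was called at -0.60 ± 0.14 (adjusted p = 0.0339), and this call was lost in 5 of the 6 fits that left out an array (adjusted p up to 0.273). The rise of Pank1, a pantothenate kinase of coenzyme A synthesis, by 0.93 ± 0.21 (adjusted p = 0.0271) was lost when either wild-type array was left out (adjusted p up to 0.139). Without wild-type array 1 or array 2, 10 members were called lower and 3 higher, and without double-loss array 2 there were 6 higher.

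The promoter windows below show where 2 DNA elements of PGC-1 partner factors lie in respiratory chain genes that fell. The windows run from 250 bases before to 50 bases after the transcription start, written 5′ to 3′ on the gene's strand, from RefSeq on assembly GRCm38.p6. The first is Sdhd, a membrane anchor of complex II, at chr9:50603800-50604099 on the minus strand. Capitals mark a match to the estrogen-related receptor element TNAAGGTCA, read on the opposite strand and starting at position 37 after the start. The same window also holds the nuclear respiratory factor 1 element, at position -79, left in lower case here. The second is the complex I subunit Ndufs5, at chr4:123718137-123718436 on the minus strand. The third is the complex I subunit Ndufa5, at chr6:24527641-24527940 on the minus strand, 1 of 2 windows listed for that gene. In these 2, capitals mark a match to the nuclear respiratory factor 1 element (GCGCA, any base and GCGC), starting at positions -98 and -26. They are the 2 respiratory chain genes with this element that had the largest falls.
Sdhd: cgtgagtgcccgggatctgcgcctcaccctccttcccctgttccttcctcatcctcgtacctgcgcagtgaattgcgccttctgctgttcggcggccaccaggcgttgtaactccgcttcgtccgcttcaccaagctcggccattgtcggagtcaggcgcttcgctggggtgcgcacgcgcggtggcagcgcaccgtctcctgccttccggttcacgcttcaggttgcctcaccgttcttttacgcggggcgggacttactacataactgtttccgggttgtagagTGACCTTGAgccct
Ndufs5: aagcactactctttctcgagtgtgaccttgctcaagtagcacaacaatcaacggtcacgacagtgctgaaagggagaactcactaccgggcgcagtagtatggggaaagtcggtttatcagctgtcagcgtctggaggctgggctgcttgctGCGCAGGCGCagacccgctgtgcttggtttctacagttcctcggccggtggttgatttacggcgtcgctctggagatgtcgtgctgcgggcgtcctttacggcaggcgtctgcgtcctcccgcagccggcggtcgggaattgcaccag
Ndufa5: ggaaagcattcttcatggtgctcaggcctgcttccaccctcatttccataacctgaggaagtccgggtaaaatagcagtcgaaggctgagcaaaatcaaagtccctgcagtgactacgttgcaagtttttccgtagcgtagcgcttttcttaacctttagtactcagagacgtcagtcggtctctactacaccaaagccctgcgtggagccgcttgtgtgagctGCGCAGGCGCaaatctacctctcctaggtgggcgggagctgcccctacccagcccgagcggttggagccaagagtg

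Both strands were searched with each set of letters. The estrogen-related receptor element was in 1.43% of all 27025 genes with a window, in 0.990% of the genes tested, in 1.26% of the genes called lower and in 0.447% of those called higher. Among 102 called-lower mitochondrial, thermogenic and partner genes with a window, Sdhd alone held it outside chromosome 18. Windows on chromosome 18 were left out of that count of matches but not of the 102, so any match there is not counted. Called-lower genes on that chromosome include Ppargc1b, Acaa2, Cidea and Nr3c1. The nuclear respiratory factor 1 element, which can overlap itself because it reads nearly the same on both strands, was in 5.19% of all genes with a window and in 10.1% of those tested. It was in 9 of 42 respiratory chain genes called lower (21.4%) and in 15 of the 65 tested (23.1%). The element CCGGAAGT, bound by the ETS factor GABP, was in 7.79% of tested genes and in 4 of the 42 (9.52%). A match is a description of the sequence, not of binding.

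All 78 respiratory chain and ATP synthase genes tested had a negative fold change, and 47 were called lower and none higher, where 6.0% of all genes were called lower. After quantile normalization 77 of the 78 were negative. The median was -0.62, with members from -1.69 to -0.02, and 48 members stayed within 2-fold, where 85.6% of all genes did. On the knockout-control arrays the median difference from wild type was -0.06. Double loss stood at a median of -0.58 from those arrays, with 4 members called lower, where 0.564% of all genes were called lower in that comparison. Leaving out 1 array moved this count: 1 member was called without either wild-type array, none without either knockout-control array, 2 without double-loss array 2 and 38 without double-loss array 1, while the median stayed between -0.66 and -0.52. The number of respiratory calls depended on the wild-type arrays: 5 members were called lower without wild-type array 1 and 4 without wild-type array 2, although the medians, -0.63 and -0.60, hardly moved.

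Members were assigned to complexes by gene symbol, not by function. This counted Ndufa4 (-0.70, called lower) in complex I and Cox7a2l (-0.15, not called) in complex IV. Complex I, which takes electrons from NADH, had 23 of 33 members called lower, at a median of -0.68. Its values in the double-loss arrays were below both wild-type arrays for all 33 members, where 30.4% of all genes with 4 values lay apart in this direction. Ndufs5 read 5046 and 5040 in wild-type cells, 3992 and 4355 in knockout-control cells and 2710 and 1799 in double-loss cells. The order of the groups was the same on every array, and the fall from wild type was -1.18 ± 0.20 (adjusted p = 0.00938). Ndufb10 fell by 1.18 ± 0.16 on the log2 scale, from 6633 and 6894 to 3391 and 2608 (adjusted p = 0.00446). Ndufa5 fell by 1.16 ± 0.18, from 4797 and 4731 to 2519 and 1770 (adjusted p = 0.00722). Ndufb9 did not pass, at -0.47 ± 0.14 (adjusted p = 0.0691). The calls of Ndufb10 and Ndufa5 held without any 1 array, and that of Ndufs5 was lost without wild-type array 2 (adjusted p = 0.0502).

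Complex II links the tricarboxylic acid cycle to the chain, and 3 of its 4 subunits were called lower at a median of -0.90. Sdhb, its iron-sulfur subunit, read 9556 and 9641 in wild-type cells, 9260 and 8751 in knockout-control cells and 5260 and 4981 in double-loss cells. The fall was -0.90 ± 0.14 (adjusted p = 0.00613), and against knockout-control it was -0.81 (adjusted p = 0.0443), a call lost in 5 of the 6 fits without 1 array (adjusted p up to 0.260). The cytochrome bc1 complex, complex III, had 6 of 9 members lower at a median of -0.58. Uqcr11 was its largest fall, from 7587 and 7517 to 4027 and 3440, by -1.01 ± 0.15 (adjusted p = 0.00525). The mobile carrier cytochrome c, Cycs, read 8921 and 6495 in double-loss cells against 11430 and 11480 in wild-type cells and missed the threshold at -0.59 ± 0.17 (adjusted p = 0.0710). The calls of Sdhb and Uqcr11 were lost without wild-type array 1 (adjusted p up to 0.0734 and 0.0501 over the fits without 1 array), and that of Sdhb also without wild-type array 2.

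Complex IV, cytochrome oxidase, had the median nearest 0 of the complexes: 4 of 13 members were called lower, at -0.33. Of the 13, 11 stayed within 2-fold, where 85.6% of all genes did. Cox4i1, a core nuclear subunit, read 12520 and 12810 in wild-type cells and 10640 and 10030 in double-loss cells, a difference of -0.29 ± 0.14 (adjusted p = 0.221). Cox7a1, described above, was the far point of this complex. Several other members read near the top of the intensity range, such as Cox7a2 at 14430 and 14170 in wild-type cells. The highest intensities on those arrays were 15152 and 15220. Among bright members, Cox6b1 (11920 and 12560 in wild-type cells) was called lower and Cox4i1 was not. Compression of signal at high intensity was not tested. ATP synthase had 11 of 18 members lower at a median of -0.61. Of the 18, 15 had values on all 4 arrays compared, and the call of Atp5md rested on double-loss array 1 alone (5658). Atp5o, a stalk subunit, read 11940 and 12140 in wild-type cells, 10640 and 9691 in knockout-control cells and 6773 and 6237 in double-loss cells. It fell by 0.89 ± 0.14 on the log2 scale (adjusted p = 0.00770). Atp5b, the catalytic beta subunit, was kept within 2-fold at -0.27 ± 0.14 (adjusted p = 0.256). No ATP synthase member was called without wild-type array 1 or without wild-type array 2, where the adjusted p of Atp5o reached 0.0840. Leaving out a knockout-control array left 3 calls, and leaving out double-loss array 2 left 6.

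**Figure D2:**
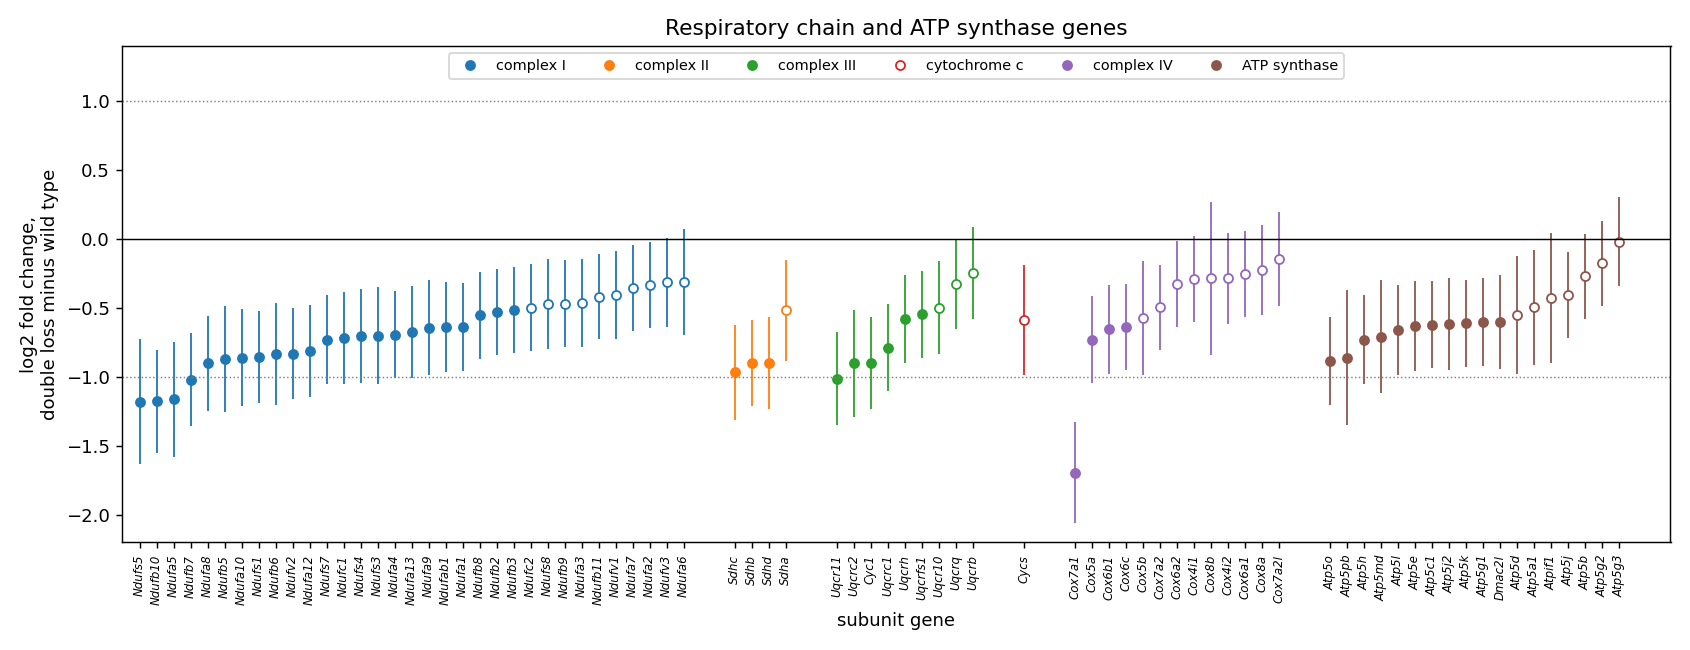
Log2 fold change, double loss minus wild type, of 78 respiratory chain and ATP synthase genes by complex, with 95% intervals as lines and dotted lines at 2-fold. Filled points were called lower. Of the 78 genes, 74 had values on all 4 arrays compared. All 78 points lie below 0, Cox7a1 is the lowest at -1.69, and 4 of the 13 points of complex IV are filled.

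Some subunits exist as tissue-specific isoforms, and the members of some pairs had unlike values. Cox7a1 fell by 1.69, whereas its widely expressed counterpart Cox7a2 read 14430 and 14170 in wild-type cells and 10270 and 9987 in double-loss cells (-0.50 ± 0.14, adjusted p = 0.0548). Hk1, a hexokinase, fell from 2339 and 2297 to 737 and 666, by -1.68 ± 0.17 (adjusted p = 0.00107), beside 655 and 884.5 in knockout-control cells. Hk2, its insulin-responsive counterpart, read 1635 and 1915 against 2822 and 2335 and did not pass (0.53 ± 0.17, adjusted p = 0.0854). Ldhb, the lactate dehydrogenase subunit of oxidative tissues, read 4729 and 4579 in wild-type cells, 2783 and 2671 in knockout-control cells and 1042 and 1005 in double-loss cells. Its fall of -2.15 ± 0.14 (adjusted p = 0.000118) stood beside Ldha at -0.04 ± 0.14, which was kept at 11740 and 12400 against 12280 and 12530. Slc25a4, an ADP/ATP carrier of the inner membrane, was called at -0.83 ± 0.14 (adjusted p = 0.00822), and its counterpart Slc25a5 was not (-0.25 ± 0.15, adjusted p = 0.338). Of the 3 genes for the ATP synthase c subunit, Atp5g1 was called at -0.60 ± 0.14 (adjusted p = 0.0325), and Atp5g2 and Atp5g3 stayed within 2-fold at -0.18 and -0.02. Double loss differed from knockout-control by 0.06 for Atp5g1 (adjusted p = 0.895). The call of Slc25a4 was lost when either wild-type array was left out (adjusted p up to 0.0990). That of Atp5g1 was lost in 5 of the 6 fits without 1 array (adjusted p up to 0.248) and with the mean of its probe sets (adjusted p = 0.241). Other pairs of cytochrome oxidase had like values, all kept within 2-fold: Cox4i1 at -0.29 and Cox4i2 at -0.28, Cox6a1 at -0.25 and Cox6a2 at -0.33, and Cox8a at -0.22 and Cox8b at -0.29. In each of these pairs the difference between the members was not tested. Cox7a2 and Ldha read nearer the top of the intensity range than Cox7a1 and Ldhb, and compression of signal there was not tested. Over all genes, 6.0% were called lower and 4.00% higher. In all, 8 of 29 isoform genes were called lower and none higher, and 5 lower without wild-type array 1 or array 2.

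In the tricarboxylic acid cycle 13 of 22 genes were called lower and 1 higher (6.0% and 4.00% of all genes were), at a median of -0.59. Ogdh, the first component of the 2-oxoglutarate dehydrogenase complex, read 4137 and 3939 in wild-type cells, 3561 and 3276 in knockout-control cells and 1521 and 1261 in double-loss cells. It fell by 1.52 ± 0.15 on the log2 scale (adjusted p = 0.000988), and by 1.28 from knockout-control (adjusted p = 0.0155), a call lost when either knockout-control array was left out (adjusted p up to 0.144). Dlst, a component of the same complex, fell by 0.95 ± 0.15 (adjusted p = 0.00731), and Suclg1, a subunit of succinyl-CoA ligase, by 0.93 ± 0.15 (adjusted p = 0.00805). The gene that rose was Pcx, which makes oxaloacetate from pyruvate, from 4761 and 5038 to 8467 and 8291 (0.77 ± 0.14, adjusted p = 0.0124). Its knockout-control values were 10160 and 9368. With either wild-type array left out, 1 gene of the list was called lower and none higher. The calls of Dlst, Suclg1 and Pcx were lost (adjusted p up to 0.0719, 0.0737 and 0.142).

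Mitochondrial fatty acid oxidation was divided, with 7 of 27 genes lower and 3 higher (6.0% and 4.00% of all genes were) at a median of -0.22. Slc25a20, which carries acylcarnitines across the inner membrane, fell from 3616 and 3874 to 1878 and 1361, by -1.21 ± 0.18 (adjusted p = 0.00540). The knockout-control arrays read 2081 and 2231 for it. Acadvl, which starts the oxidation of very long chains, read 7054 and 7272 in wild-type cells, 7584 and 6727 in knockout-control cells and 4049 and 3501 in double-loss cells (-0.92 ± 0.15, adjusted p = 0.00831). Acadm, the medium-chain enzyme, was kept at -0.08 ± 0.14, with 8459 and 7734 against 8393 and 8731. Acsl5, an acyl-CoA synthetase, rose from 1790 and 1755 to 3551 and 3071 (0.89 ± 0.15, adjusted p = 0.00896), beside 3232 and 2977 in knockout-control cells. The calls of Acadvl and Acsl5 were lost when either wild-type array was left out (adjusted p up to 0.0829 and 0.0886), where 1 gene was called lower and none higher.

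Genes that build mitochondria were called lower in part, where 6.0% of all genes were called lower and 85.6% were kept. Of 75 mitochondrial ribosome genes, 16 were called lower and none higher, at a median of -0.30, and 58 were kept. That median was -0.48 without double-loss array 1, -0.12 without double-loss array 2 and -0.18 after quantile normalization. Mrpl47 read 1597 and 1734 in wild-type cells, 1304 and 1434 in knockout-control cells and 825 and 599 in double-loss cells. It fell by 1.21 ± 0.18 (adjusted p = 0.00541). Mrps36, whose place on this list rests on its symbol alone, read 2204 and 2072, then 2138 and 2470, then 1004 and 807 in the same order of groups. Its fall was -1.22 ± 0.16 (adjusted p = 0.00378). Protein import had 10 of 27 genes lower and none higher. Tomm40l, a homologue of the outer membrane import pore, fell from 1146 and 1074 to 543 and 414 (-1.17 ± 0.16, adjusted p = 0.00460), and the chaperones Hspa9 and Hspd1 stayed within 2-fold at -0.33 and -0.19. Genome maintenance and expression had 5 of 20 lower, led by the elongation factor Gfm1 at -1.02 ± 0.19 (adjusted p = 0.0129), a call lost when either wild-type array was left out (adjusted p up to 0.101). Fusion and fission had 4 of 13 lower. Opa1, the inner membrane fusion GTPase, read 2288 and 2118 in wild-type cells, 999 and 1147 in knockout-control cells and 912 and 584 in double-loss cells. It fell by 1.55 ± 0.21 (adjusted p = 0.00387) and differed from knockout-control by -0.53 (adjusted p = 0.301). Without wild-type array 1 the ribosome had 2 calls, import 1, genome maintenance 0 and fusion and fission 2. Without wild-type array 2 they had 2, 3, 0 and 2. Without double-loss array 1 the ribosome had 29. Genome maintenance had 3 calls with either knockout-control array left out and 2 without double-loss array 2.

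Mitochondrial carriers moved both ways, with 6 of 34 lower, Ucp1 among them, and 3 higher, where 6.0% and 4.00% of all genes were. Slc25a33, a pyrimidine nucleotide carrier, read 3215 and 2941 in double-loss cells against 1532 and 1598 in wild-type cells (0.96 ± 0.17, adjusted p = 0.0111). Slc25a10, the dicarboxylate carrier, was called higher at 0.85 ± 0.20 (adjusted p = 0.0321). The call of Slc25a33 was lost when either wild-type array was left out (adjusted p up to 0.0885), where 2 carriers were called lower and none higher. That of Slc25a10 was lost in 4 of the 6 fits, without either wild-type or either knockout-control array (adjusted p up to 0.161).

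The transcription factors and cofactors that work with PGC-1 moved less uniformly: of 39 tested, 8 were called lower, 4 higher and 30 stayed within 2-fold (76.9%, against 85.6% of all genes). Over all genes, 6.0% were called lower and 4.00% higher. Esrra, the estrogen-related receptor most tied to mitochondrial genes, read 950 and 926 in wild-type cells, 1033 and 1226 in knockout-control cells and 498 and 464 in double-loss cells. Only the double-loss arrays were low, with a difference of -0.92 ± 0.15 from wild type (adjusted p = 0.00804) and -1.17 from knockout-control (adjusted p = 0.0202, and up to 0.139 without a knockout-control array). Gabpa, the DNA-binding subunit of GABP, read 1885 and 1887 in wild-type cells, 1127 and 1309 in knockout-control cells and 954 and 682 in double-loss cells (-1.19 ± 0.18, adjusted p = 0.00643). Sirt3, the main mitochondrial deacetylase, read 1670 and 1713, then 1109 and 1346, then 654 and 512 in the same order of groups, and changed by -1.50 ± 0.17 (adjusted p = 0.00183). Tfam, which packages and transcribes mitochondrial DNA, was called at -0.66 ± 0.15 (adjusted p = 0.0299). Nrf1 read 381 and 345 against 455 and 437 and did not pass (0.28 ± 0.14, adjusted p = 0.256). Rxra, the partner receptor of the PPARs, rose by 1.16 ± 0.18 (adjusted p = 0.00689), though 1 of its 3 probe sets had the opposite sign. It read 537 and 519 in wild-type cells, 940 and 998 in knockout-control cells and 1451 and 1026 in double-loss cells. The calls of Esrra and Tfam were lost when either wild-type array was left out (adjusted p up to 0.0790 and 0.225), and that of Tfam also without double-loss array 2. When probe sets were averaged, Esrra stood at -0.08, Tfam at -0.44 and Rxra at 0.51, and none was called (adjusted p = 0.924, 0.0991 and 0.0813). With averaged probe sets the list had 4 lower and 1 higher of 36 tested. With the brightest probe set, it had fewer than 8 lower and fewer than 4 higher when either wild-type array was left out. It had 5 and 3 with either knockout-control array left out and 4 and 4 without double-loss array 2.

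Most general adipocyte genes kept their level, though in a smaller share than genes at large. Of 30 genes, 22 stayed within 2-fold (73.3%, against 85.6% of all genes). Another 4 were called lower and 4 higher (6.0% and 4.00% of all genes were), at a median of -0.05 that became 0.07 after quantile normalization. Pparg, the master regulator of fat cell formation, read 4029 and 4169 in wild-type cells, 5310 and 5263 in knockout-control cells and 4864 and 4239 in double-loss cells, a difference of 0.15 ± 0.14 (adjusted p = 0.574). Cebpa, which acts with it, read 6351 and 6076 against 6600 and 5841 and differed by 0.00 ± 0.14 (adjusted p = 0.999). The fatty acid binding protein gene Fabp4 read 15150 and 15220 in wild-type cells and 14630 and 13500 in double-loss cells (-0.11 ± 0.14), near the top of the intensity range. Lpl, lipoprotein lipase, was kept at -0.08 ± 0.14, and the hormone gene Adipoq at -0.32 ± 0.14, with 9772 and 9523 against 11940 and 12130 (adjusted p = 0.189). Ppara was kept at 1373 and 1364 against 1457 and 1287.

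Several adipocyte genes that changed read about as far from wild type on the knockout-control arrays. Cebpd, an early adipogenic factor, rose from 314 and 322 to 1589 and 1132 (1.97 ± 0.21, adjusted p = 0.00125), beside 1673 and 2282 in knockout-control cells. Rbp4, the retinol carrier, fell from 11540 and 11860 to 4837 and 3554 (-1.49 ± 0.20, adjusted p = 0.00387), beside 3176 and 4258. Sncg, gamma-synuclein, fell by 1.51 ± 0.14 (adjusted p = 0.000624). Resistin, Retn, was called higher at 1.09 ± 0.16 (adjusted p = 0.00541), a call lost without wild-type array 2 (adjusted p = 0.0548). Differences of double loss from knockout-control were -0.53 for Cebpd, 0.17 for Rbp4, 0.17 for Sncg and -0.40 for Retn, none of which passed (adjusted p = 0.298, 0.764, 0.656 and 0.314). Slc36a2, an amino acid transporter of the adipocyte surface, read 3131 and 3430 in wild-type cells, 3589 and 3964 in knockout-control cells and 1919 and 1786 in double-loss cells (-0.81 ± 0.14, adjusted p = 0.0116), a call lost when a wild-type array was left out (adjusted p up to 0.141). Without wild-type array 1 or array 2, the list had 2 genes lower and 2 higher, and without double-loss array 1 it had 7 lower.

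Of 22 fatty acid and triglyceride synthesis genes, 19 stayed within 2-fold (86.4%, near the share of all genes), 3 were called higher and 1 lower. Over all genes, 4.00% were called higher and 6.0% lower. Scd1, the main desaturase of adipocytes, read 12940 and 13100 in double-loss cells against 12750 and 12830 (0.03 ± 0.14, adjusted p = 0.928). Scd3 rose from 1220 and 998 to 4438 and 3654 (1.84 ± 0.19, adjusted p = 0.00108), though desaturase genes are alike in sequence and their probe sets may share signal. Mlxipl, the glucose-responsive factor ChREBP, rose from 748 and 735 to 1748 and 1662, by 1.17 ± 0.14 (adjusted p = 0.00190). The knockout-control arrays read 2192 and 2177 for Mlxipl and 3329 and 4314 for Scd3. Differences of double loss from knockout-control, -0.35 for Mlxipl and 0.09 for Scd3, did not pass (adjusted p = 0.291 and 0.8805). Cholesterol synthesis had 3 of 18 genes higher and 1 lower. Cyp51 rose from 792 and 823 to 2465 and 1633 (1.28 ± 0.20, adjusted p = 0.00731), beside 1634 and 1892 in knockout-control cells. Sc5d rose from 389 and 384 to 1078 and 826 (1.22 ± 0.18, adjusted p = 0.00604), beside 672 and 875 in knockout-control cells. With the mean of its probe sets, Sc5d was at 0.47 and not called (adjusted p = 0.239). Glycolysis had 4 of 17 lower, Ldhb and Hk1 among them, and 1 higher, while Pgk1 was kept at -0.05 ± 0.14. Slc16a3, a lactate exporter on the glycolysis list, fell from 1476 and 1543 to 524 and 370 (-1.70 ± 0.20, adjusted p = 0.00228), with 453 and 621 in knockout-control cells. In each of the fits without a wild-type array, the fatty acid list had 2 higher and none lower, and cholesterol synthesis had the same counts. Glycolysis then had 3 lower and none higher. Without double-loss array 1 the fatty acid list had 4 lower and glycolysis 7, and without double-loss array 2 cholesterol synthesis had 5 higher and none lower.

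**Figure D3:**
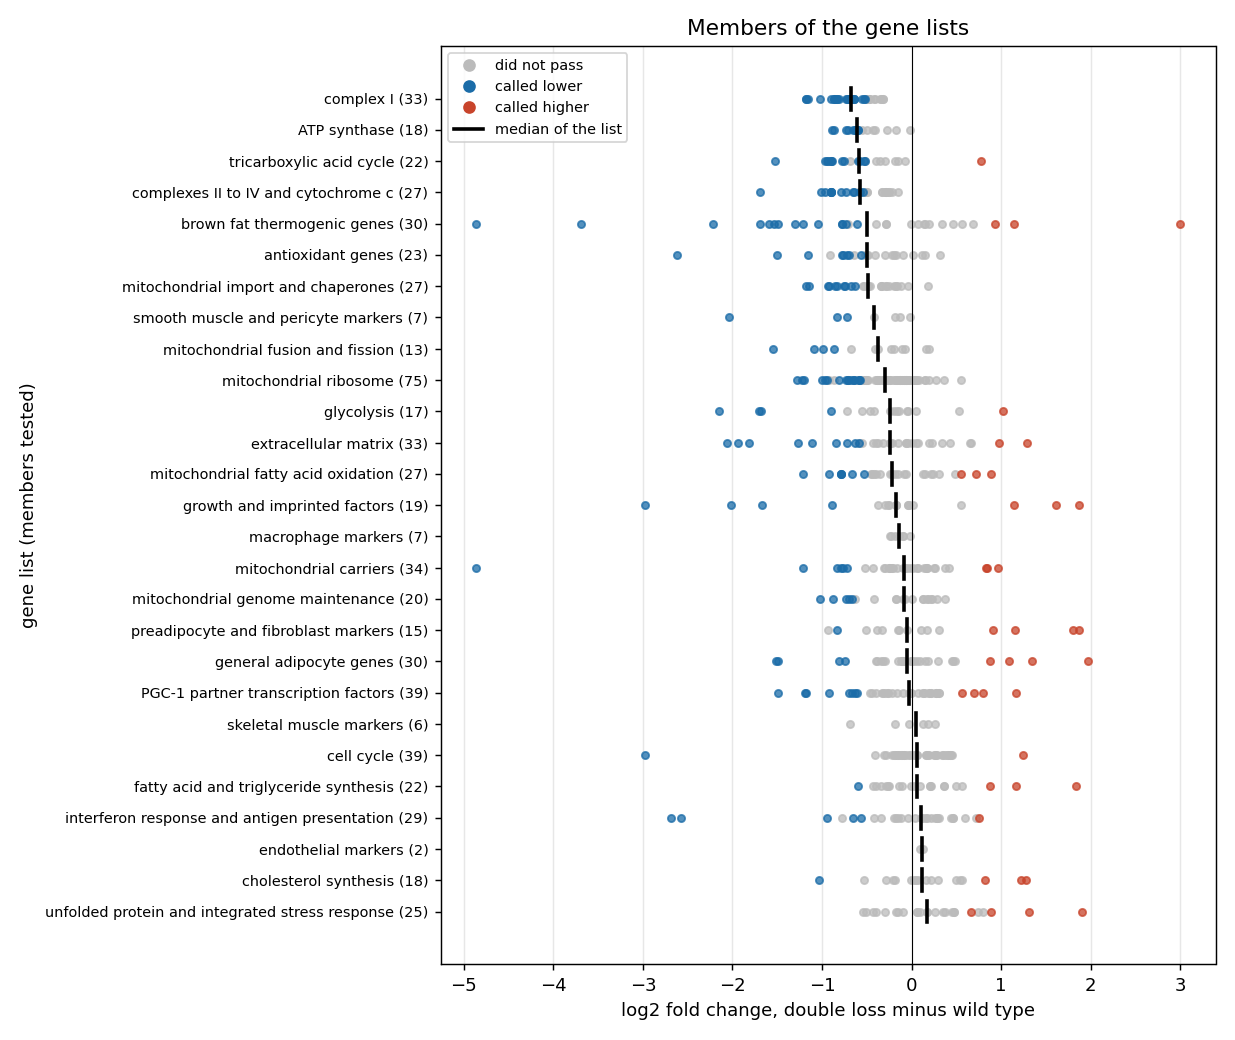
Log2 fold change, double loss minus wild type, of each tested member (points) of the gene lists, ordered by the list's median (black bar). Points called lower are blue, points called higher are red and the rest are grey. Most mitochondrial lists and the thermogenic list lie to the left, with medians down to -0.68 for complex I. Mitochondrial genome maintenance (-0.08) and carriers (-0.09) lie near general adipocyte genes (-0.05). Antioxidant genes (-0.49) and smooth muscle and pericyte markers (-0.42) also lie to the left.

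The largest changes of all mixed genes that differed from knockout-control with genes that did not. After Ucp1, the largest falls were Hoxc8, Car9, Mb, Adgrg6, Ppargc1b, Cdkn1c, Grb14, Tfr2 and Hmgn3. Hoxc8, a homeobox gene of positional identity, read 1153 and 1234 in wild-type cells, 41.9 and 71.8 in knockout-control cells and 62.6 and 44.9 in double-loss cells (-3.85 ± 0.20, adjusted p = 5.8e-05). Cdkn1c, an imprinted inhibitor of cyclin-dependent kinases, read 9708 and 9404, then 1246 and 1555, then 1322 and 1071 (-2.97 ± 0.17, adjusted p = 9.5e-05). Both were low in both knockout groups. Adgrg6, an adhesion G protein-coupled receptor, showed another pattern: 771 and 552 in wild-type cells, 822 and 649 in knockout-control cells and 39.2 and 55.6 in double-loss cells. It fell by 3.12 ± 0.21 against wild type (adjusted p = 0.000142) and by 3.27 against knockout-control (adjusted p = 0.000458). For Hoxc8, Car9, Cdkn1c, Grb14, Tfr2 and Hmgn3 the difference of double loss from knockout-control lay between -0.75 (Car9) and -0.04 (Hoxc8) and did not pass.

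The 10 largest rises were Rarres1, Agt, Sult1a1, Ifi207, Hoxd8, Elovl3, Mndal, Tmem182, Kitl and Rnf144b. Agt, angiotensinogen, read 164 and 215 in wild-type cells, 2588 and 2434 in knockout-control cells and 3611 and 3253 in double-loss cells (3.97 ± 0.16, adjusted p = 2.1e-05). Sult1a1, a sulfotransferase, read 193 and 248.7, then 3802 and 3715, then 4055 and 3490 (3.92 ± 0.16, adjusted p = 2.1e-05). Hoxd8 read 53.5 and 72.3, then 967 and 978, then 1258 and 823 (3.48 ± 0.21, adjusted p = 0.000107). None of the 10 passed against knockout-control. The one with the largest difference was Tmem182, at 1.01 (adjusted p = 0.0563). All 20 genes were called in every fit without 1 array that tested them. Over all genes, double loss against knockout-control gave 114 calls (0.835% of 13649), 77 lower (0.564%) and 37 higher (0.271%). These 2 comparisons share the double-loss arrays, so their values are only set side by side.

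**Figure D4:**
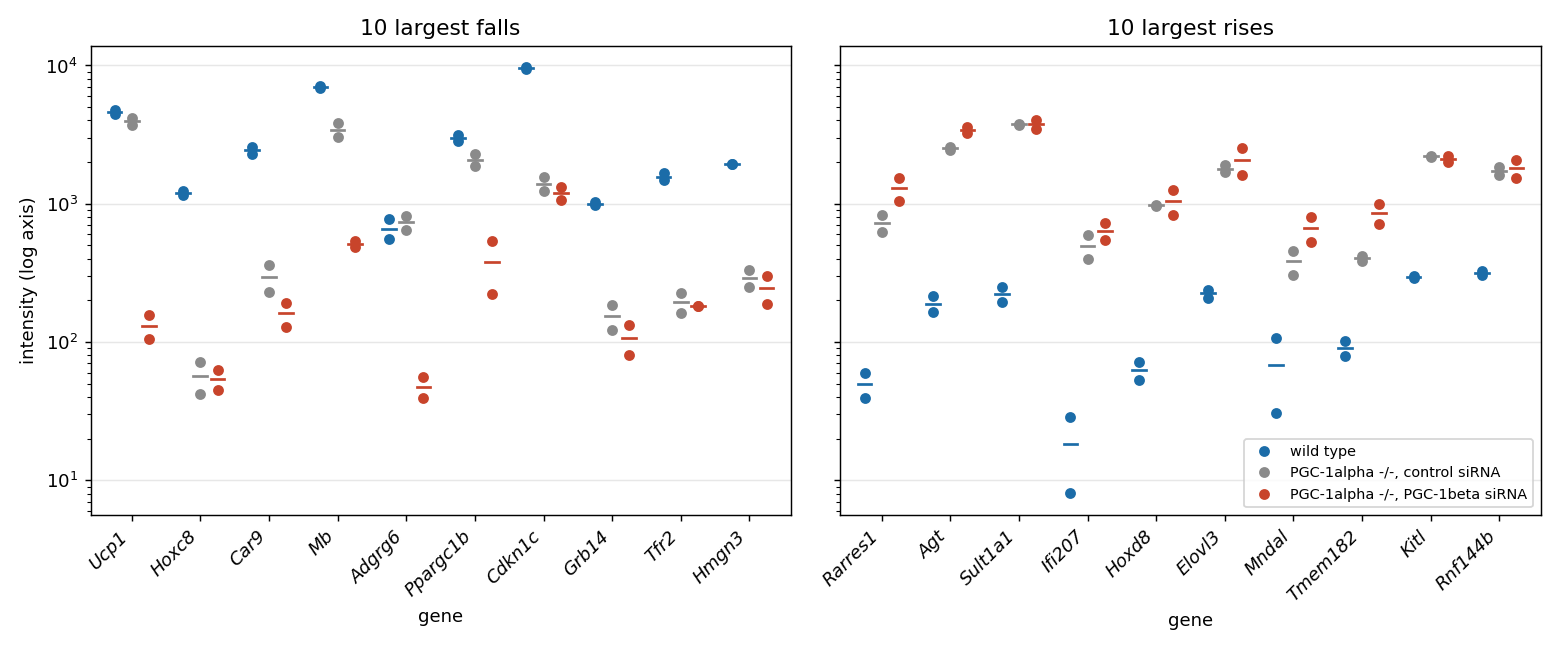
Intensity on each of the 6 arrays (points, log axis) of the 10 genes with the largest falls and the 10 with the largest rises in double loss minus wild type, with a bar at each group's mean. The knockout-control points lie near the double-loss points for Hoxc8, Cdkn1c, Sult1a1 and Kitl, and near the wild-type points for Ucp1 and Adgrg6.

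Markers of other cell types changed in places, where 4.00% of all genes were called higher and 6.0% lower. Of 15 preadipocyte and fibroblast markers, 4 were called higher and 1, Cd44, lower at -0.83 ± 0.17 (adjusted p = 0.0204). The list's median was -0.05, with 8 members negative and 7 positive. Summed intensity ran from 17440 to 17570 on the wild-type arrays and 17510 to 19110 on the knockout-control arrays. On the double-loss arrays it ran from 19540 to 20540. Vim, kept within 2-fold, gave 9422 and 9693 of the wild-type sums and 10160 and 10450 of the double-loss sums. Dlk1, which holds preadipocytes undifferentiated, read 467 and 333 in wild-type cells, 384 and 438 in knockout-control cells and 1609 and 1452 in double-loss cells. It rose by 1.87 ± 0.18 (adjusted p = 0.000872), and by 1.82 against knockout-control (adjusted p = 0.00696, and up to 0.0831 without a knockout-control array). Klf2, a factor that restrains adipogenesis, rose from 99.4 and 100.1 to 496 and 366 (1.80 ± 0.22, adjusted p = 0.00241), beside 574.7 and 878.5 in knockout-control cells. Of 7 smooth muscle and pericyte markers, 3 fell, with summed intensities of 6152 to 6519 in wild-type cells, 4626 to 4970 in knockout-control cells and 3719 to 3830 in double-loss cells. Tagln, an actin-binding protein of smooth muscle, fell from 746.5 and 687 to 154 and 145 (-2.04 ± 0.14, adjusted p = 0.000178), beside 239 and 270 in knockout-control cells. No marker of skeletal muscle (6 tested), macrophages (7) or endothelium (2) passed. Without double-loss array 1, 1 skeletal muscle marker was called lower, and without double-loss array 2 there were 2, while macrophages and endothelium had none in any fit without 1 array. The summed macrophage markers read 3906 and 4018 in wild-type cells, 4257 and 3770 in knockout-control cells and 3412 and 3890 in double-loss cells. No marker tested in these lists was listed at 0. The part of these cell types in the falls of Ucp1 and the respiratory genes was not tested. Without wild-type array 1 the preadipocyte list had 2 higher and none lower, and without wild-type array 2 it had 3 and none. The smooth muscle list had 1 lower in both.

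Antioxidant genes fell in part, with 8 of 23 lower (6.0% of all genes were) and none higher at a median of -0.49. Sod2, the mitochondrial superoxide dismutase, read 6043 and 6180 in wild-type cells, 4077 and 4207 in knockout-control cells and 3054 and 2439 in double-loss cells (-1.15 ± 0.16, adjusted p = 0.00392). Sod3, the secreted form, fell from 2446 and 2393 to 404 and 331 (-2.62 ± 0.15, adjusted p = 9.5e-05), beside 358 and 395 in knockout-control cells. Gclc, which makes the precursor of glutathione, changed by -1.50 ± 0.24 (adjusted p = 0.00787), and Gpx4, which repairs lipid peroxides, was kept at 0.02 ± 0.14. Gclc read 1538 and 1625 in wild-type cells, 458 and 659.5 in knockout-control cells and 681 and 423 in double-loss cells. Without wild-type array 1 or array 2, 3 members were called.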

How the data were processed

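RNA of differentiated mouse brown fat cells was labelled with biotin and measured on 6 one-colour arrays, 2 per group, grouped by their titles. The authors deposited 1 linear intensity for each of 45037 probe sets, and the summarisation, background correction and scaling behind it are not given in the sources used. Array medians lay between 220.9 and 242.7, so no further scaling was applied in the main analysis. Cells holding the word null (5285) or nothing (870) were treated as missing, and a gene's fit then used its other arrays. Gene names came from the 2016 platform annotation and a RefSeq gene table of GRCm38.p6: 34945 had 1 symbol, 932 several and 9160 none, and 34741 matched the table. Each gene was represented by its brightest probe set, and genes with a mean below the 40th percentile over probe sets (an intensity of 163.6) were left out. Of 1365 called genes, 629 had several probe sets above that level, and in 133 one of these had the opposite sign.

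In limma (version 3.58.1, R 4.3.3) 1 model was fitted to log2(intensity + 32) on all 6 arrays with 3 group means, so the knockout-control arrays shared in the estimate of the spread. Adjusted p-values in the text are Benjamini-Hochberg values over all genes tested in that model, two-sided. Fold changes understate the change of dim genes. Precision is limited by the number of arrays, and an exact test of 2 against 2 arrays cannot give a p below 0.333, so none was used. The procedure was tested on simulated data. Gene lists were described by counts and medians, with no test of a list.

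The comparison, gene lists and named genes were chosen with earlier results of these data known. Named genes were a set of 26 coactivator, thermogenic, adipocyte and mitochondrial genes, the 10 largest changes in each direction whose groups did not overlap, up to 4 called genes per list and direction, the 2 brightest kept genes per list, and isoform pairs. Alternatives were the pseudocount, the filter, the choice of probe set, scaling, the arrays in the fit, a replicate block, trend and robust settings, null cells set to 0, and leaving out each array.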

Additional observations from a re-analysis of the deposited data

How the results depend on the processing

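The log2 fold changes of Ucp1 and Ppargc1b kept their direction and their calls under every alternative run, between -5.18 and -4.61 and between -3.57 and -2.42. Counts of called genes moved more. Against 546 higher and 819 lower, no filter on dim genes gave 240 and 345, averaging the probe sets of a gene gave 319 and 459, quantile normalization gave 1269 higher, and centring arrays on their medians gave 848 higher. Leaving out 1 array gave 163 to 930 higher and 175 to 1818 lower. Same-numbered arrays did not deviate in a common direction, so the numbers do not pair the arrays. The r was -0.15 for wild type and double loss, 0.20 for wild type and knockout-control and -0.50 for knockout-control and double loss. The deviations of knockout-control and double loss thus tended to be opposite. Knockout-control array 2 correlated at 0.967 with double-loss array 1 and at 0.947 with array 2. Knockout-control array 1 correlated at 0.955 with double-loss array 2 and at 0.947 with array 1. The main model had no term for this. With the replicate block 299 higher and 436 lower genes were called. With the double-loss numbers crossed, a choice made after seeing the data, the replicate block gave 1160 and 1661. The cause of these shifts was not tested. Genes kept within 2-fold numbered 8842 with the filter at the 60th percentile, which tests fewer genes, and 13989 with no filter, against 11685. Of 134 named genes called, 66 were called in each fit without 1 array that tested them. Acta2, called at -0.84, stood at 0.0025 and was not called with the mean of its probe sets (adjusted p = 0.994). Its call was also lost without either wild-type array, where it stayed between -0.92 and -0.75. The mean took in probe sets below the filter, and Acta2, Esrra, Psmb8 and Atp5g1 each had 1 probe set above it. The endothelial list had no value at the 60th percentile. The number of arrays, 2 per group, limits every value here.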

Other observations

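Immune and stress genes outside the mitochondrial comparison also moved. Of 29 interferon and antigen presentation genes, 5 were called lower (6.0% of all genes were) and 1 higher. Psmb8, an immunoproteasome subunit, read 1733 and 1571 in wild-type cells, 83.8 and 115.6 in knockout-control cells and 301 and 174 in double-loss cells (-2.68 ± 0.23, adjusted p = 0.000494 by limma). Psmb9, another subunit, read 2900 and 2715, then 263 and 361, then 511 and 386 (-2.57 ± 0.19, adjusted p = 0.000236 by limma). Of 25 unfolded protein and integrated stress response genes, 4 were called higher (4.00% of all genes were) and none lower. Chac1, a glutathione-degrading enzyme, read 420 and 427 in wild-type cells, 447 and 332 in knockout-control cells and 1245 and 967 in double-loss cells (1.31 ± 0.19, adjusted p = 0.00482 by limma). Ern1, a sensor of unfolded protein, rose from 242 and 352 to 1265 and 1103, with 727 and 1053 in knockout-control cells (1.91 ± 0.22, adjusted p = 0.00202 by limma). Hspa5, the main chaperone of the endoplasmic reticulum, did not pass (-0.43 ± 0.17, adjusted p = 0.146 by limma). Stress calls numbered 2 higher without wild-type array 1 or array 2, 7 higher without double-loss array 2 and 9 higher after quantile normalization. Without double-loss array 1 there were 3 higher and 2 lower. When probe sets were averaged, the limma calls of Ern1 (0.44, adjusted p = 0.242) and Psmb8 (-1.24, adjusted p = 0.221) were lost. Interferon calls numbered 2 lower and none higher with either wild-type array left out, and 4 and none with either knockout-control array left out.

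Some matrix and growth genes also changed. Fn1, fibronectin, fell from 3588 and 3408 to 863 and 774 (-2.06 ± 0.17, adjusted p = 0.000389 by limma), with 738 and 989 in knockout-control cells. Mmp2, a gelatinase, rose from 323 and 252 to 728 and 760 (1.29 ± 0.16, adjusted p = 0.00241 by limma), with 324 and 308 in knockout-control cells. Of 33 matrix genes, 9 were called lower and 2 higher (6.0% and 4.00% of all genes were). Without wild-type array 1 the counts were 4 and 2, and without wild-type array 2 they were 5 and 1. Igf1, insulin-like growth factor 1, fell from 1121 and 1163 to 384 and 296 (-1.67 ± 0.16, adjusted p = 0.000935 by limma), with 238 and 275 in knockout-control cells. Plagl1, an imprinted zinc finger gene, rose from 451 and 402 to 1026 and 935 (1.14 ± 0.15, adjusted p = 0.00305 by limma), beside 478 and 439. With the mean of the probe sets, Plagl1 was at 0.35 and Cdkn1a at 0.39, and neither was called by limma (adjusted p = 0.219 and 0.270). Of 39 cell cycle genes, Cdkn1a was called higher and Cdkn1c lower, and 36 were kept, while quantile normalization called 10 higher and 1 lower, and the fit without double-loss array 2 called 4 higher.

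Some genes could not be tested because a group had no value. Hlf, a transcription factor with a circadian rhythm, read 680 and 757 in wild-type cells and held the word null on the other 4 arrays. Apcdd1, an inhibitor of Wnt signalling, had a probe set at 518 and 546 in wild-type cells that held null on the other 4. Rpl39l held null on both wild-type arrays and read 2278 and 2645 in knockout-control cells and 2982 on the double-loss array with a value. Some probe sets of Xist and of Y-linked genes differed between the lines, and others did not. One Xist probe set read 57.9 and 115.8 in wild-type cells and 3409 and 4307 in knockout-control cells. It read 2593 on the double-loss array with a value. Another Xist probe set read 195.8 and 198.7, then 231.4 and 252.8, then 231.4 and 182.3 in the same order of groups. A probe set of the Y-linked gene Uty read 479 and 433, then 417 and 463.5, then 455 and 341. Eif2s3y, on the Y chromosome, read 872 and 960.5 in wild-type cells and 6.25 and 5.13 on the knockout-control and double-loss array with a value.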
